A study of Mus musculus with 66 samples.

Results

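The proximal genes of mouse chromosome 11 are described here as the protein-coding genes that start below 60 Mb and have any RNA-Seq count in wildtype E14 embryonic stem cells. They number 358 of 15974 protein-coding genes with a wildtype count and a position, and their starts run from 3131850 to 59970614. The boundary was drawn because the proximal genes were higher in 1 of the 2 deletion groups, GDel2, so the GDel2 ratios below are a description and carry no test. The comparison on the same chromosome is the 918 genes that start from 60 Mb on.

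E14 is an established mouse embryonic stem cell line. The 3 groups were wildtype (3 libraries), GDel1 (2 libraries) and GDel2 (2 libraries). GDel1 and GDel2 carry the same genotype label, a deletion of a G4 at Praf2, a gene on the X chromosome that encodes a membrane protein of the PRA1 family. A G4, or G-quadruplex, is a stacked structure formed by runs of guanine. All cells were untreated and grew in serum with LIF, a GSK inhibitor and a MEK inhibitor. Whether GDel1 and GDel2 are separate clones, and whether the libraries of a group came from separate cultures, cannot be told from the labels, so the p-values measure only the spread between these libraries. The 59 other samples of the series are not analysed here.

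The proximal stretch of mouse chromosome 11 holds genes of very different roles side by side. It includes ribosome and nucleolus factors, chaperones, nuclear export and vesicle transport proteins, cytokines of the LIF family, and the imprinted pairs Grb10 with Ddc and Zrsr1 with Commd1. Imprinted genes are read mainly from the maternal or the paternal copy. Neighbouring genes can move together where they share a copy number, a chromatin domain or an imprinting control region, and none of these was measured in the RNA tables.

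Library totals lay between 12316853 and 18762704 expected counts. Praf2, at X:7728571-7731063, was at 27.5, 28.8 and 30.6 CPM (counts scaled to library size, defined below) in wildtype, 10.1 and 9.26 in GDel1, and 13.1 and 14.1 in GDel2, so every deletion library was below every wildtype library. All 10 embryonic stem cell markers were found, with a mean of at least 1 CPM. Their summed level was 5338 to 6035 CPM in wildtype and GDel1 and 5143 and 4921 CPM in GDel2. Within this sum, single markers moved both ways in GDel2. Nanog was at 1405 and 1354 CPM in GDel2 against 1038 to 1054 in wildtype, and Zfp42 at 357 and 397 against 166 to 176. Tfcp2l1 was at 1198 and 1007 CPM against 1858 to 1970, and Dppa5a at 399 and 354 against 635 to 684. The 8 fibroblast markers summed to 0.625 to 2.36 CPM in wildtype and GDel1 and to 3.16 and 2.89 CPM in GDel2. There Thy1 made up most of the sum, at 2.37 and 2.53 CPM. Col3a1, Postn, Dcn and Twist2 were at 0 in all libraries. The 6 primitive endoderm markers summed to 1.77 to 2.36 CPM in wildtype and GDel1 and to 3.95 and 3.61 CPM in GDel2. The 6 trophoblast markers summed to 6.35 to 8.04 CPM in wildtype and GDel1 and to 17.1 to 19.4 CPM in GDel2. There Eomes made up most of the sum. Cdx2 was at 0.395 and 0.361 CPM in GDel2 against 1.21 to 1.91 in wildtype. Gata3 was at 0.237 and 0.145 CPM against 1.1 to 1.18. The 5 neuroectoderm markers summed to 46.3 to 58.5 CPM in wildtype and GDel1 and to 112 to 117 CPM in GDel2, where Tubb3 made up most of the sum and Neurog2 was at 0. Mitochondrial genes took 9.91% of the counts in GDel1 replicate 1 and 9.6% in GDel2 replicate 2, against 4.83% to 6.89% in the other libraries. The part of these shifts in the results below was not tested, except where values without those 2 libraries are given.

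Promoter sequences of 4 proximal genes are shown because the results turn on these genes. Rack1, a ribosomal scaffold protein, gave the most CPM in wildtype and was higher in GDel2. Adam19, a membrane metalloprotease, gave the most CPM in wildtype among the 23 genes at or below the wildtype mean in both GDel2 libraries. Ddc and Grb10 are imprinted neighbours that lay on opposite sides of wildtype in GDel2. Each run gives the 250 bases before the RefSeq start nearest the gene's outer end on GRCm38.p6, 5′ to 3′ on the gene's own strand. For Grb10 this start lies a few bases inside the gene's end at 12037428, so its window overlaps the gene slightly. The windows lie at chr11:48800110-48800359, plus strand, at chr11:46054252-46054501, plus strand, at chr11:11898145-11898394, minus strand, and at chr11:12037421-12037670, minus strand. Capitals mark a match to 4 runs of at least 3 G with gaps of 1 to 7 bases, searched on both strands.
Rack1: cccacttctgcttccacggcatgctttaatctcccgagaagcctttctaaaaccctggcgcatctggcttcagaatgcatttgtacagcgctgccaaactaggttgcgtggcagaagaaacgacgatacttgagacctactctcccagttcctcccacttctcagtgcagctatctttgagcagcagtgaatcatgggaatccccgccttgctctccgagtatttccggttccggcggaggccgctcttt
Adam19: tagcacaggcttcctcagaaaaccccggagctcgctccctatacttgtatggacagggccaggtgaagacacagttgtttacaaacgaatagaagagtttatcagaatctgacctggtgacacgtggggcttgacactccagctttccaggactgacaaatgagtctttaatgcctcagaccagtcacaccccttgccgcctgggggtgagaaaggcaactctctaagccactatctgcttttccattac
Ddc: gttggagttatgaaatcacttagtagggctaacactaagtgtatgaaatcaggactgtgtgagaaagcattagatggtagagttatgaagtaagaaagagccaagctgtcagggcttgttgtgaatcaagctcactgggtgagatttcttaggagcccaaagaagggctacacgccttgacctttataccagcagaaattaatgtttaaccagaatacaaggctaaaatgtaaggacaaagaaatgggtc
Grb10: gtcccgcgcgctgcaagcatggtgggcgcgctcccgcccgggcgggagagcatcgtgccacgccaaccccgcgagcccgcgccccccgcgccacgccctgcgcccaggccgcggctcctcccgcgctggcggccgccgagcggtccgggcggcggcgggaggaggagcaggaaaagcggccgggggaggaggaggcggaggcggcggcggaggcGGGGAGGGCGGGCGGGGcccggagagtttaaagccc

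The Grb10 window held 1 such match, 40 CpG dinucleotides and 81.2% G or C. The Ddc window held none, with 1 CpG and 40.8% G or C. Rack1 and Adam19 held none either, with 13 and 5 CpG. In the 300-base RefSeq windows, which add 50 bases after the start, the G-run pattern was in 21.2% of 17492 protein-coding promoters, in 24.2% of the 227 proximal genes with a promoter entry (of 261 at 1 CPM or more in wildtype), and in 30.1% of 542 genes from 60 Mb on. Of the 23 proximal genes at or below the wildtype mean in both GDel2 libraries (described below), 19 had an entry and 7 of these held the pattern (36.8%), against 48 of 208 other proximal genes (23.1%). CCAAT, searched on both strands, was in 3 of those 19 (15.8%) and in 88 of the 208 (42.3%), with 39.2% over all promoters. GGGCGG was in 57.9% of the 19, in 69.2% of the 208 and in 46.3% of all promoters. These are counts of letters in the windows, and the match of GGGCGG can overlap a G run.

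In GDel2 the proximal genes were higher as a body. Of the 358 genes, 261 had a wildtype mean of at least 1 CPM, and ratios are given for these. CPM is the rounded expected count per 1000000 counts of a library size scaled by the trimmed mean of M values (TMM). The median proximal gene stood at 1.44 times the wildtype mean in GDel2 replicate 1 and at 1.41 times in replicate 2. On the log2 scale these medians were 0.52 and 0.49, while the wildtype libraries gave medians of 0.00, 0.01 and -0.01 against their own mean. The middle 50% of genes lay between 1.18- and 1.69-fold and the middle 80% between 0.902- and 2.00-fold, over the mean of both GDel2 libraries. In these bulk samples more cells of a type and more RNA per cell cannot be told apart.

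**Figure D1:**
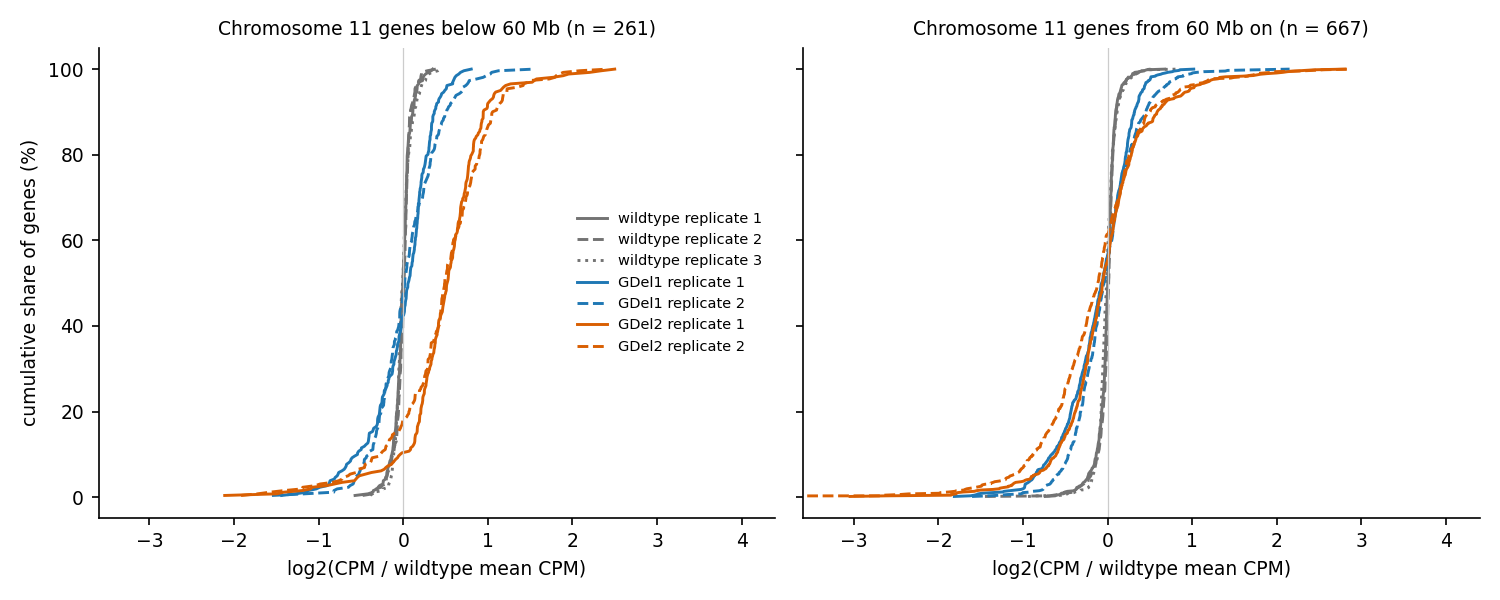
Cumulative share of chromosome 11 genes (y axis, %) by log2 ratio of CPM to the wildtype mean (x axis), for each of the 7 libraries, with proximal genes on the left (n = 261) and genes from 60 Mb on at the right (n = 667). On the left both GDel2 curves are shifted to the right, with medians of 0.52 and 0.49, while on the right all curves cross near 0; 1 value lies below the axis and is not drawn.

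The genes from 60 Mb on gave medians of -0.06 and -0.11 in the GDel2 libraries. The proximal median exceeded that of the rest of the chromosome by 0.58 and 0.60 on the log2 scale in the GDel2 libraries. Protein-coding genes of the other autosomes, leaving out chromosomes 6 and 8, had a median of -0.07 in GDel2. Chromosomes 6 and 8 as wholes had GDel2 medians of 0.49 and 0.43, and no other chromosome exceeded 0.08. The scaling sets where 0 lies: centred on the other autosomes, the proximal median was 0.59 and the median from 60 Mb on -0.03.

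**Figure D2:**
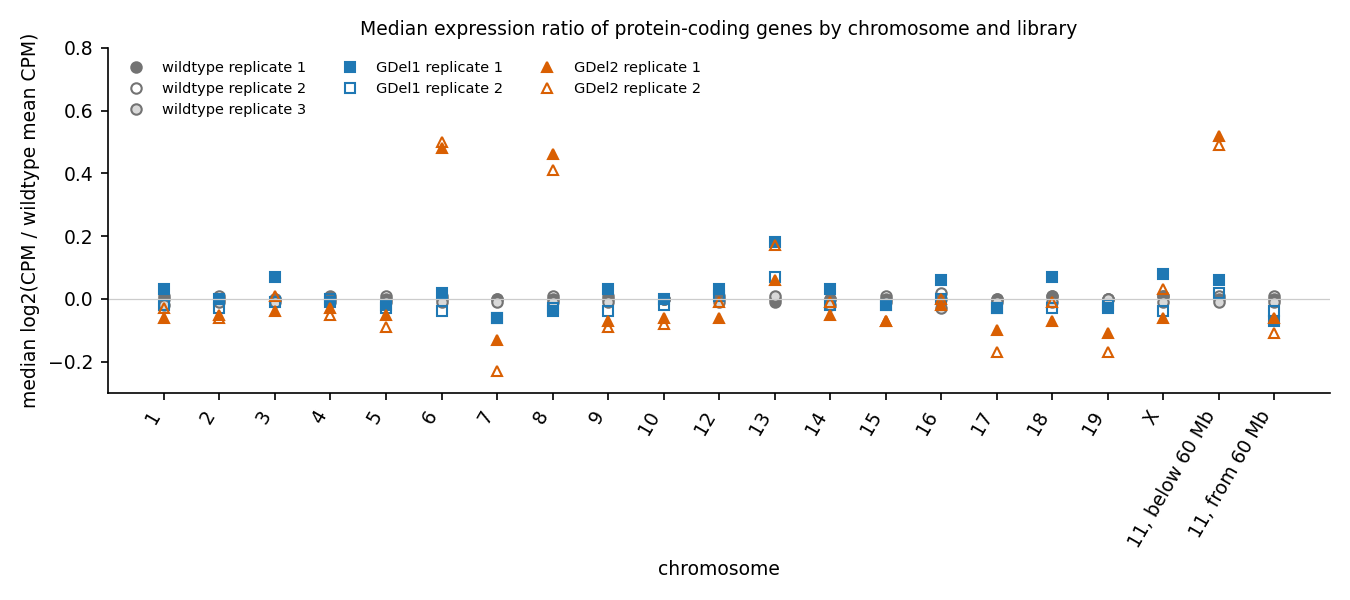
Median log2 ratio of CPM to the wildtype mean (y axis) of the protein-coding genes of each chromosome (x axis), with chromosome 11 divided at 60 Mb and 1 symbol per library. The GDel2 triangles stand apart for the proximal genes of chromosome 11 (0.52 and 0.49), for chromosome 6 (0.48 and 0.50) and for chromosome 8 (0.46 and 0.41).

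As a share of all protein-coding counts, the proximal genes took 3.07%, 3.07% and 3.09% in wildtype, 3.32% and 3.29% in GDel1, and 4.44% and 4.57% in GDel2. The genes from 60 Mb on took 6.58% to 6.67% in wildtype, 6.15% and 6.41% in GDel1, and 6.28% and 5.85% in GDel2. The proximal share was thus highest in the GDel2 libraries and had no overlap with the other groups.

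Both GDel2 libraries lay above every wildtype library for 203 of the 261 proximal genes (77.8%). The same held for 33.3% of all 11412 protein-coding genes at this level and for 26.8% of those from 60 Mb on. Both lay below every wildtype library for 19 proximal genes (7.28%, against 35.4% of all). A ratio of at least 2 in both libraries was reached by 17 proximal genes (6.51%, against 3.14% of all), and a ratio of 0.5 or less by 4 (1.53%, against 4.07%). In edgeR's quasi-likelihood fit over all 7 libraries, 280 proximal genes passed the filter on low counts. Of these, 171 were called higher in GDel2 than in wildtype at an adjusted p under 0.05, and 12 lower, where 17.4% and 15.6% of all genes tested were called (33.1% in either direction). Against GDel1, 147 were called higher in GDel2 and 11 lower, where 14.8% and 12.8% of all genes were called (27.7% in either direction). Both GDel2 libraries lay above both GDel1 libraries for 189 of the 261 (72.4%, against 29.7% of all) and below them for 17 (6.51%, against 31.3%). Because the genes were chosen on these contrasts, nothing is read from their counts of calls.

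Along the chromosome the GDel2 ratio was not flat and did not end at 60 Mb. The first 5 Mb had a median log2 ratio of 0.15 over 35 genes, with 0.22 in replicate 1 and 0.07 in replicate 2. The next 5 Mb had 0.46, and the 5 Mb windows from 10 to 50 Mb lay between 0.56 and 0.67. From 50 to 60 Mb the windows stood at 0.47 and 0.53. Between 20 and 30 Mb, 38 of 39 genes were above the wildtype mean in both GDel2 libraries. The longest unbroken run of such genes had 46 members, from Aftph at 20685084 to Nprl3 at 32231963.

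**Figure D3:**
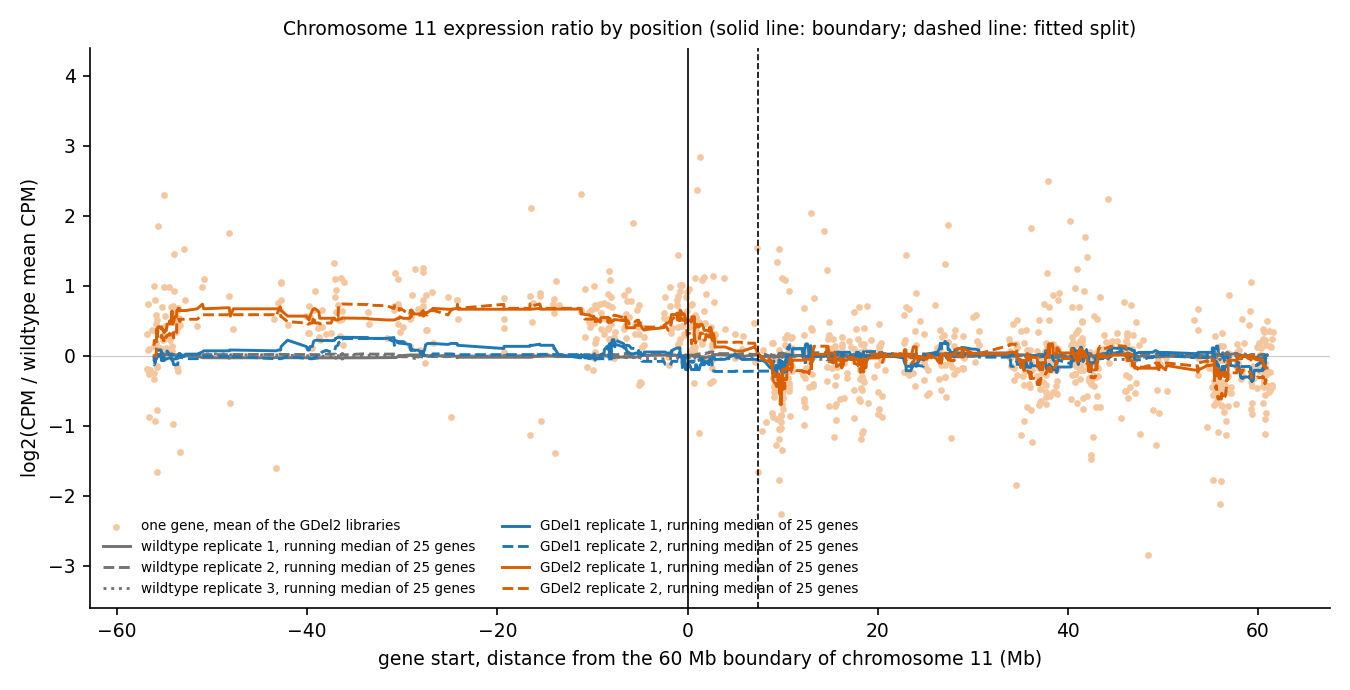
Log2 ratio of CPM to the wildtype mean (y axis) by distance of the gene start from the 60 Mb boundary (x axis, Mb), with 1 dot per gene for the mean of the GDel2 libraries and 1 line per library for the running median of 25 genes. The GDel2 lines run near 0.6 over most of the proximal stretch and fall to 0 again past the solid boundary line, near the dashed line at the fitted split, while at the far left replicate 2 starts near 0 (lowest value -0.011); 1 dot lies below the axis and is not drawn.

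The genes next to the boundary show that it is not the edge of the higher stretch. Just inside, Nt5m, Med9 and Pemt had GDel2 means of 1.47, 1.56 and 1.88 times wildtype. Just outside, Rai1, Srebf1 and Tom1l2 had 1.96, 1.34 and 1.06 times wildtype. The window from 60 to 65 Mb had a median log2 ratio of 0.31 over 47 genes, of which 38 were above wildtype. From 65 to 70 Mb the median was -0.36 over 63 genes, of which 14 were above wildtype, and the later 5 Mb windows lay between -0.33 and 0.13.

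A single split of the ordered chromosome 11 genes, placed to minimise the absolute deviations from the median on each side, fell between Myh13 (start 67327103) and Gas7 (start 67453257) for the GDel2 mean. The 314 genes before it had a median log2 ratio of 0.47 and the 614 after it -0.13, a step of 0.60. Replicate 2 gave the same place with a step of 0.63. In replicate 1 the split fell earlier, between Cox10 (63962627) and Elac2 (64979030), with a step of 0.59. With genes of at least 10 CPM it fell at 62.1 Mb, and with the deposited TPM at 62.3 Mb, so the edge is placed only to between about 62 and 67 Mb. Few expressed genes lie there: 1 Mb windows held 2 genes from 63 to 64 Mb, 1 from 64 to 65 Mb and 3 from 65 to 66 Mb.

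The genes flanking the fitted split differ widely. Myh13, a muscle myosin heavy chain, was at 1.91, 2.35 and 2.84 CPM in wildtype, 2.58 and 3.75 in GDel1, and 5.92 and 7.95 in GDel2. Gas7, a cytoskeletal adaptor, was at 10.1, 9.28 and 9.40 CPM in wildtype, 5.88 and 5.67 in GDel1, and 2.76 and 3.33 in GDel2. Both GDel2 libraries were thus highest for Myh13 and lowest for Gas7, with no overlap. Sco1, a copper chaperone of cytochrome oxidase and the expressed gene before Myh13, had a GDel2 mean of 0.937 times wildtype, so single genes do not place the edge. With 2 splits allowed, a separate low stretch of 59 genes from Gas7 to Acadvl (start 70010183) had a median of -0.44, and the genes after it -0.10. No split of another autosome reached the step of chromosome 11, the next being 0.30 on chromosome 13; on the X chromosome 26 genes at one end differed by -0.48.

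In GDel1, the contrast that did not choose the genes, the proximal stretch did not stand out to a comparable degree. The proximal medians were 0.06 and 0.02 on the log2 scale and those from 60 Mb on -0.07 and -0.04. The proximal excess over the rest of the chromosome was 0.13 and 0.06 in the GDel1 libraries against -0.01 to 0.00 in wildtype. The difference of 0.10 between the groups had an exact two-sided permutation p of 0.1, the smallest that 10 arrangements of 2 against 3 libraries allow, so it cannot pass 0.05. The fitted split for the GDel1 mean had a step of 0.13, between Hint1 (54866383) and Gpx3 (54902854), while replicate 1 alone placed it near 114.67 Mb and replicate 2 near 54.98 Mb. Both GDel1 libraries lay above every wildtype library for 74 proximal genes (28.4%, against 23.1% of all genes) and below for 52 (19.9%, against 24.9%).

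Of the 280 proximal genes tested, 2 rose in GDel1 against wildtype and 0 fell (edgeR, Benjamini-Hochberg over 15421 genes), where 0.162% and 0.214% of all genes were called. An unadjusted p under 0.05 was reached by 89 of the 280, these 2 included, where 24.5% of all genes tested reached it. DESeq2 called 29 of the 280, where it called 6.32% of all genes. Ddc, the enzyme that makes dopamine and serotonin from their precursors, rose by 0.70 ± 0.11 (SE) on the log2 scale with an adjusted p of 0.0488 in edgeR. Wdr92, a WD-repeat adaptor of chaperone complexes, rose by 0.55 ± 0.09 with the same adjusted p. Both were higher in 2 of 2 GDel1 libraries than in any wildtype library. Both calls are lost without any 1 of the wildtype libraries (adjusted p 0.144 to 0.220) or of the GDel2 libraries (0.0565 and 0.0639), and over all alternatives the edgeR and DESeq2 adjusted p of Ddc ran from 0.00384 to 0.277. Next in order of p were Snrnp25, Nhp2 and Sec24a, each with an adjusted p of 0.0528 and log2 differences of 0.69, 0.53 and -0.63.

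The GDel1 and GDel2 contrasts share the wildtype libraries, so their values are only set side by side. Wdr92 was at 22.3, 23.5 and 23.9 CPM in wildtype, 34.9 and 33.2 in GDel1, and 40.2 and 40.6 in GDel2. Snrnp25, a protein of the minor spliceosome, was at 7.19 to 7.73 CPM in wildtype, 11.1 and 12.6 in GDel1, and 12.5 and 11.6 in GDel2. For these genes the deletion groups lay close to each other and above wildtype. Sec24a, a coat protein of vesicles leaving the endoplasmic reticulum, was at 124 to 137 CPM in wildtype, 81.3 and 88.7 in GDel1, and 175 and 139 in GDel2, and so lay on opposite sides.

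Genes of translation and the nucleolus had the highest list medians among lists of more than 4 genes. All 12 listed proximal genes of this role were tested, and 10 were called higher in GDel2 and 0 lower. Of the 280 proximal genes tested, 61.1% were called higher and 4.29% lower, against 17.4% and 15.6% of all genes tested. The same shares stand beside the counts of the gene lists below, and no such count is read as a trait of a role. The list median log2 ratio was 0.73 against 0.53 for all 261 proximal genes. Npm1, the nucleolar chaperone nucleophosmin at chr11:33152498-33164142, was at 1899, 1731 and 1764 CPM in wildtype, 2319 and 2532 in GDel1, and 3061 and 3715 in GDel2. The 3 groups did not overlap and stood in that order. Rack1, whose promoter is shown above, was at 1876, 1820 and 1879 CPM in wildtype, 2397 and 1623 in GDel1, and 2788 and 3048 in GDel2. Here the GDel1 libraries lay on both sides of wildtype. Pno1, a factor of small-subunit assembly, stood at 1.89 and 2.26 times wildtype in the GDel2 libraries, and Gemin5, which brings RNA to the SMN complex, at 2.04 and 1.90 times. Larp1, which binds the start of mRNAs for ribosomal proteins, was the exception at 1.18 and 0.825 times. No gene of this list was called in GDel1, where the median was 0.21.

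Of 9 RNA-binding and splicing genes, 6 were called higher in GDel2 and 0 lower, beside 61.1% and 4.29% of all proximal genes tested. Their median log2 ratio was 0.39, below the 0.53 of all 261 proximal genes. Papolg, a poly(A) polymerase, was at 1.85 and 2.34 times wildtype. Hnrnph1, a regulator of alternative splicing, was at 247, 248 and 278 CPM in wildtype, 274 and 354 in GDel1, and 302 and 307 in GDel2. Hnrnpab was at 235 to 248 CPM in wildtype, 224 and 361 in GDel1, and 333 and 301 in GDel2. For these 2 genes 1 GDel1 library reached above both GDel2 libraries. Sf3a1, a subunit of the U2 particle, was at 1.10 and 0.728 times wildtype in GDel2.

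Protein folding and turnover had 14 listed genes, of which 11 were called higher in GDel2 and 0 lower, with a median of 0.46. Canx, the calnexin chaperone of the endoplasmic reticulum, was at 973, 993 and 958 CPM in wildtype, 1203 and 907 in GDel1, and 1520 and 1694 in GDel2. Hspa4, a co-chaperone of the Hsp70 family, was at 696, 747 and 705 CPM in wildtype, 807 and 933 in GDel1, and 1068 and 1007 in GDel2. For both chaperones GDel2 lay above all other libraries. Cct4, a subunit of the chaperonin that folds actin and tubulin, stood at 1.92 and 1.93 times wildtype. Psme4, a proteasome activator, stood at 1.06 and 1.14 times and Rnf130, a ubiquitin ligase, at 0.733 and 1.03 times.

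Among 10 cell cycle and DNA repair genes, 7 were called higher in GDel2 and 0 lower, with a median of 0.57. Ppp2ca, the catalytic subunit of phosphatase 2A, was at 440, 433 and 426 CPM in wildtype, 546 and 390 in GDel1, and 673 and 734 in GDel2. Hus1, of the clamp loaded at damaged DNA, stood at 1.91 and 2.05 times wildtype. Rad50, of the double-strand break complex, stood at 1.65 and 1.80 times. Ccng1, a p53 target, differed from these with 284, 276 and 270 CPM in wildtype, 395 and 277 in GDel1, and 257 and 319 in GDel2, where the GDel2 libraries lay on both sides of wildtype.

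Transport genes numbered 12, of which 9 were called higher in GDel2 and 0 lower, with a median of 0.38. All 12 had both GDel2 libraries above every wildtype library, as did 77.8% of the 261 proximal genes and 33.3% of all. Xpo1, the main nuclear export receptor, was at 701, 729 and 738 CPM in wildtype, 925 and 891 in GDel1, and 1110 and 1286 in GDel2. The order wildtype, GDel1, GDel2 held without overlap. Sar1b, the GTPase that starts vesicle coats, was at 12.7 to 17.3 CPM in wildtype, 22.9 and 23.1 in GDel1, and 29.9 and 40.0 in GDel2, in the same order. Vdac1, the pore of the outer mitochondrial membrane, was at 541, 560 and 583 CPM in wildtype, 583 and 659 in GDel1, and 736 and 687 in GDel2.

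Of 12 metabolic and mitochondrial genes tested, 8 were called higher in GDel2 and 1 lower, with a median of 0.41. Upp1, which cleaves uridine, was at 263, 275 and 288 CPM in wildtype, 347 and 297 in GDel1, and 581 and 592 in GDel2, far above the other groups. Ogdh, a subunit of the 2-oxoglutarate dehydrogenase of the citric acid cycle, was at 226, 231 and 216 CPM in wildtype, 129 and 170 in GDel1, and 246 and 164 in GDel2. The GDel2 libraries disagreed for Ogdh, with replicate 2 in the range of GDel1. The gene called lower was Gm2a, a lysosomal cofactor described below.

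The 9 transcription factor genes at 1 CPM or more gave a median of 0.42, and of the 11 tested 6 were called higher in GDel2 and 1 lower. Xbp1, the factor of the unfolded protein response, was at 72.2, 78.2 and 77.2 CPM in wildtype, 72.2 and 54.6 in GDel1, and 144 and 157 in GDel2. Purb, a single-strand DNA-binding regulator, was at 182, 190 and 188 CPM in wildtype, 202 and 191 in GDel1, and 238 and 261 in GDel2. Both were highest in GDel2. Ligands, receptors and signalling genes were mixed: of 9 tested, 5 were called higher and 3 lower, with a median of 0.21 over 8 genes. Camk2b, a calcium-dependent kinase, was at 10.2, 10.6 and 11.8 CPM in wildtype, 10.5 and 12.8 in GDel1, and 31.8 and 27.8 in GDel2. Spred2, an inhibitor of Ras signalling to ERK, was at 74.0 to 76.4 CPM in wildtype, 55 and 51.6 in GDel1, and 122 and 103 in GDel2. Lif, whose protein was also in the medium, was at 1.33 and 0.611 times wildtype.

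**Figure D4:**
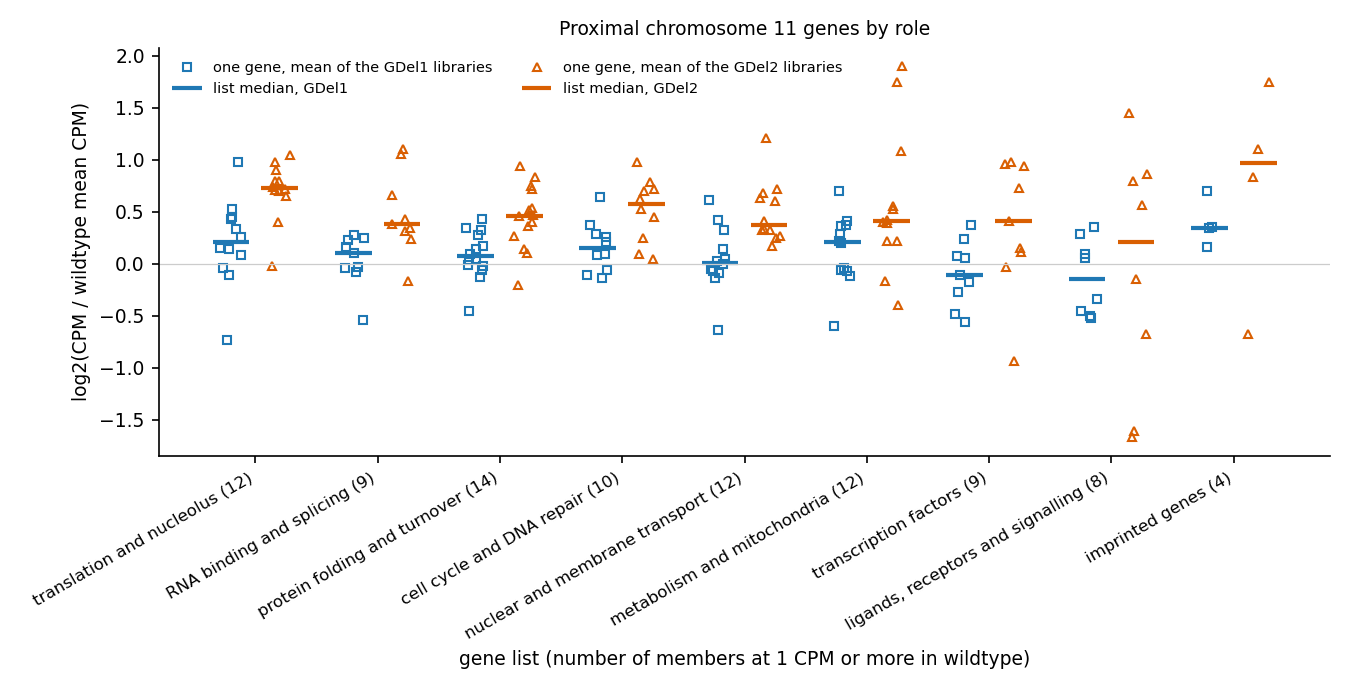
Log2 ratio of CPM to the wildtype mean (y axis) of the proximal genes at 1 CPM or more in wildtype, by role (x axis, number of genes in brackets), with 1 symbol per gene for the mean of the GDel1 or GDel2 libraries and a bar at the median of the list. The GDel2 bars lie between 0.21 (ligands, receptors and signalling) and 0.97 (imprinted genes), and the signalling list is the most spread.

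The imprinted genes lay on both sides of wildtype. Ddc, at chr11:11814101-11898144, was at 11.3, 11 and 12.4 CPM in wildtype, 20.2 and 17.5 in GDel1, and 39.5 and 38.3 in GDel2. Its neighbour Grb10, an adaptor that restrains insulin and growth factor signalling, at chr11:11930499-12037428, was at 54.3, 59.7 and 58.5 CPM in wildtype, 72.1 and 74.6 in GDel1, and 34.9 and 37.2 in GDel2. Ddc thus stood highest in GDel2 and Grb10 lowest, while both were above every wildtype library in GDel1. In the fit, GDel2 minus wildtype was 1.75 ± 0.11 (SE) on the log2 scale for Ddc and -0.67 ± 0.09 for Grb10, given as description. Around the pair, Fignl1 (start 11800288) stood at 1.72 and 1.88 times wildtype and Cobl (start 12236676) at 1.42 and 1.20 times in the GDel2 libraries.

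The other imprinted pair did not split in this way. Zrsr1, a retrogene for a splicing factor, was at 10.4, 10.8 and 12.5 CPM in wildtype, 13 and 12.2 in GDel1, and 25.3 and 23.0 in GDel2. Commd1, a regulator of copper and receptor traffic, was at 15.2, 19.2 and 15.2 CPM in wildtype, 22.7 and 19.6 in GDel1, and 28.4 and 31.0 in GDel2. Both stood above all other libraries in GDel2. Zrsr1 (22972005 to 22976496) lies inside the span of Commd1 (22899728 to 22984539), and since the strand used for counting is not given, reads of the pair may be shared. Over the 4 imprinted genes the GDel2 median was 0.97, with 3 called higher and 1 lower.

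The proximal genes that did not share the higher level were taken as those at or below the wildtype mean in both GDel2 libraries. They numbered 23 of 261 (8.81%), where 43.1% of all protein-coding genes and 50.7% of those from 60 Mb on met the same rule. Without GDel2 replicate 1 the rule takes 46 genes, since only replicate 2 then has to meet it. Of the 23, 7 start in the first 5 Mb (20% of 35 genes there), 3 in the next 5 Mb (9.38%) and 13 from 10 to 60 Mb (6.70% of 194). In 19 of the 23 both GDel2 libraries lay below every wildtype library. Of all 11412 protein-coding genes, 4913 met the rule and 4039 lay below every wildtype library, so this count follows largely from the rule.

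**Figure D5:**
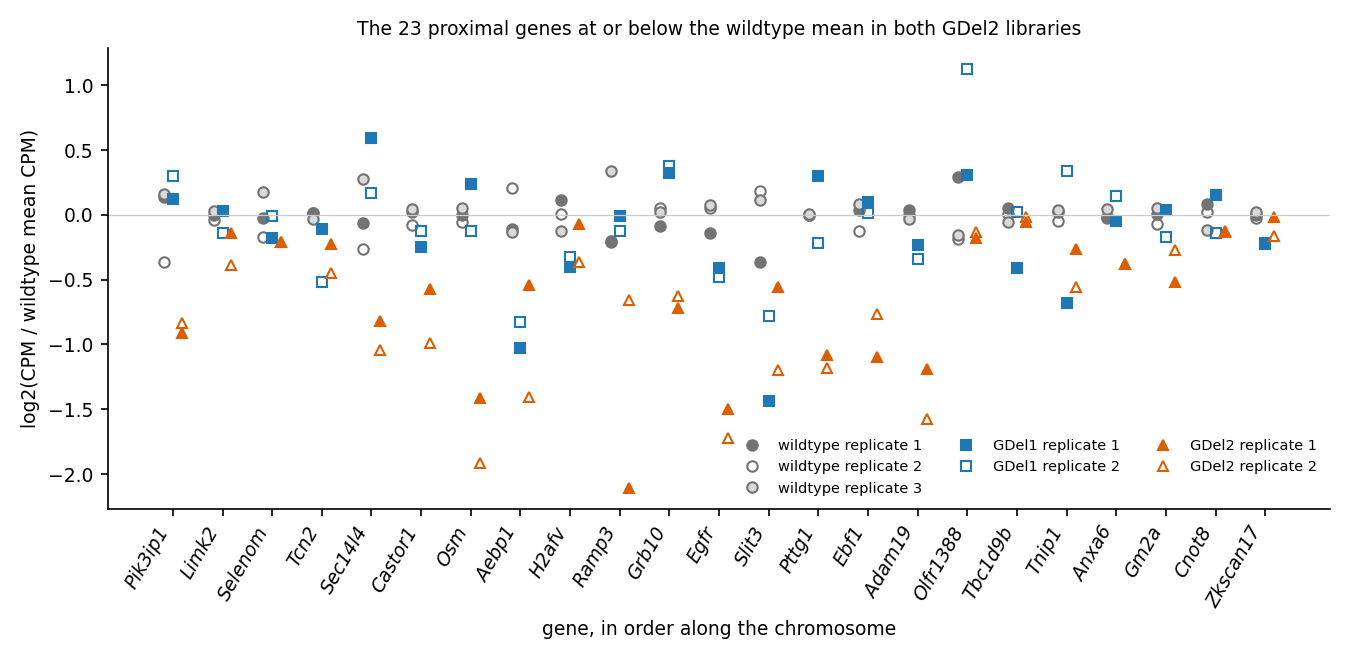
Log2 ratio of CPM to the wildtype mean (y axis) for the 23 proximal genes at or below the wildtype mean in both GDel2 libraries, in order along the chromosome (x axis), with 1 symbol per library. Osm, Egfr, Adam19 and Pttg1 have both GDel2 triangles below -1, while Zkscan17 and Tbc1d9b lie close to 0.

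Osm, a cytokine of the LIF family that starts at 4236785 beside Lif, was at 5.45, 5.26 and 5.67 CPM in wildtype, 6.44 and 5 in GDel1, and 2.05 and 1.45 in GDel2. Castor1, an arginine sensor upstream of mTORC1 and the expressed gene before Osm, was at 22.4, 20.8 and 22.7 CPM in wildtype, 18.5 and 20.2 in GDel1, and 14.8 and 11.1 in GDel2. For these neighbours GDel2 lay below all other libraries. Pik3ip1, Limk2, Selenom, Tcn2 and Sec14l4 are the other 5 of the first 5 Mb.

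Further along, low genes had higher genes nearby, though not always on both sides. Egfr, the epidermal growth factor receptor at chr11:16752203-16913907, was at 3.02, 3.46 and 3.52 CPM in wildtype, 2.50 and 2.39 in GDel1, and 1.18 and 1.01 in GDel2. Its expressed neighbours Sec61g and Fbxo48 stood at 1.48 and 1.4 times and at 1.67 and 1.69 times wildtype in GDel2. Adam19, at chr11:46054502-46147347, was at 153, 149 and 146 CPM in wildtype, 127 and 118 in GDel1, and 65.3 and 50.1 in GDel2, while Med7 and Thg1l nearby stood at 1.59 and 1.71 times and at 1.51 and 1.54 times. Adam19 was thus lowest in GDel2, without overlap, inside a stretch of higher genes.

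Pttg1 is the securin that holds back the separation of sister chromatids. It was at 37.7, 37.6 and 37.8 CPM in wildtype, 46.5 and 32.4 in GDel1, and 17.8 and 16.6 in GDel2. The next gene, Slu7, a splicing factor, stood at 1.76 and 1.86 times wildtype. Ccng1, the expressed gene before Pttg1, stood at 0.929 and 1.15 times in the GDel2 libraries. Ebf1, a transcription factor of B cell and mesenchymal lineages, was at 19.4, 17.3 and 20 CPM in wildtype, 20.3 and 19.1 in GDel1, and 8.84 and 11.1 in GDel2. For Ebf1 the GDel1 libraries lay near wildtype, and for Pttg1 they lay on both sides of it. For both genes GDel2 lay below all other libraries.

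A second group of low neighbours lay near 55 Mb. Tnip1, which binds ubiquitin chains in NF-kB signalling, was at 20.7, 19.7 and 20.9 CPM in wildtype, 12.7 and 25.8 in GDel1, and 17.0 and 13.9 in GDel2. Anxa6, a calcium-dependent membrane-binding annexin, was at 45.7, 45.5 and 47.7 CPM in wildtype, 44.7 and 51.2 in GDel1, and 35.7 and 35.7 in GDel2. Gm2a, which presents gangliosides to lysosomal hexosaminidase, was at 42.5, 40.3 and 43.7 CPM in wildtype, 43.3 and 37.5 in GDel1, and 29.4 and 34.9 in GDel2. These 3 consecutive genes at 1 CPM or more (starts 54910787, 54978953 and 55097985) were each below wildtype in GDel2, while Gpx3 before them stood at 1.21 and 1.29 times. Over the 12 such genes within 0.5 Mb of 55 Mb the median log2 ratio was 0.29. Sparc, a secreted matrix protein of this stretch, was at 190, 183 and 172 CPM in wildtype, 159 and 117 in GDel1, and 210 and 196 in GDel2.

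At the other end, several genes exceeded the body of the proximal ratios. Among genes of at least 5 CPM in wildtype, Ddc, Adcy1, Camk2b, B3gnt2, Sar1b, Nprl3, Cfap36 and 0610010F05Rik had the highest GDel2 ratios. Adcy1, an adenylyl cyclase, was at 5.96, 4.95 and 5.62 CPM in wildtype, 5.31 and 5.83 in GDel1, and 16.4 and 15.3 in GDel2. B3gnt2, which builds polylactosamine sugar chains, was at 36.4, 25.6 and 35.7 CPM in wildtype, 39.9 and 26.0 in GDel1, and 72.3 and 91.4 in GDel2. Nprl3, an inhibitor of mTORC1, was at 10.7, 11.2 and 11.9 CPM in wildtype, 9.66 and 10.2 in GDel1, and 26.1 and 25.6 in GDel2. In each, GDel1 lay near or within the wildtype range and GDel2 far above it. Cfap36 and 0610010F05Rik stood at 2.27 and 2.26 times and at 2.08 and 2.25 times wildtype.

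The 97 proximal genes below 1 CPM in wildtype are given by their sums, since single ratios rest on few reads. The 53 genes from 0.1 to 1 CPM summed to 19.6 CPM in wildtype and 43.0 in GDel2, 2.19 times as much, while genes of the same level from 60 Mb on gave 1.68 times. The 57 genes of at least 100 CPM gave a ratio of sums of 1.46, against 0.899 from 60 Mb on. In 14 of the 97 the GDel2 mean reached 1 CPM. The share of low genes from 60 Mb on that reached it is not given here, so this count is not read as a trait of the proximal genes. Fat2, a large protocadherin, was at 0.515, 0.557 and 0.630 CPM in wildtype, 0.483 and 0.364 in GDel1, and 4.58 and 3.54 in GDel2. Bcl11a, a zinc-finger repressor of blood and brain, was at 0.147, 0.247 and 0.473 CPM in wildtype and 2.45 and 2.53 in GDel2. Of the 5 immunity-related GTPases, which defend cells from within against parasites, 4 were tested and 3 were called higher in GDel2. Tgtp1 was at 0.0736, 0 and 0 CPM in wildtype and 1.81 and 1.45 in GDel2, and this family has near-identical copies whose reads the counting may have divided. Fat2, Bcl11a and Tgtp1 were picked after their values were seen.

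A further 99 protein-coding genes below 60 Mb had no wildtype count and are not members. Of these, 21 had a GDel2 count, with a highest total of 5 over both libraries, and 9 had a GDel1 count. The matching count for genes from 60 Mb on is not given here, so the 21 are not read as a trait of the proximal genes. No large gain of silent genes was detectable at this depth. The 7 proximal long non-coding RNA genes at 1 CPM had a GDel2 median of 0.14, with 0.38 in replicate 1 and -0.00 in replicate 2.

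The 2 GDel2 libraries gave like ratios gene by gene. Across the 261 proximal genes, the log2 ratios of GDel2 replicate 1 to wildtype replicate 1 and of GDel2 replicate 2 to wildtype replicate 2, which share no library, had a Pearson r of 0.82 and a Spearman rho of 0.79. The same pair gave 0.81 for both over the 667 genes from 60 Mb on, so this likeness is not peculiar to the proximal genes. Genes are not independent replicates, and these values are a description. The GDel2 ratio had r = -0.05 with the wildtype level, -0.12 with the effective length and 0.13 with the start position. The ratio of GDel2 replicate 2 to replicate 1 and that of GDel1 replicate 1 to replicate 2 had an r of 0.26 and a rho of 0.40 across proximal genes, and an r of 0.18 and a rho of 0.40 over the genes from 60 Mb on. These ratios share no library; the 2 libraries rich in mitochondrial counts are the numerators. Without those 2 libraries the fitted split fell at 64.5 Mb.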

How the data were processed

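Total RNA of 7 libraries of E14 cells (wildtype 3, GDel1 2, GDel2 2) was sequenced after removal of ribosomal RNA with a kit that keeps strand, per the labels' protocols. Per the submitters' processing notes, which name STAR, RSEM and mm10 without versions, the authors quantified genes; the strand setting and the gene annotation are not stated there. The deposited expected counts, which RSEM estimates per gene without depth scaling, were rounded. The deposited TPM, scaled by the authors for length and depth, served as an alternative, and the deposited FPKM was not used.

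Positions and biotypes came from RefSeq GRCm38.p6: 38511 of 55487 genes matched, 37984 by symbol and 527 by synonym. Counts were scaled by TMM and tested with edgeR 4.0.16 in R 4.3.3 (robust quasi-likelihood, 3 groups, a minimum count of 10, Benjamini-Hochberg over 15421 genes, threshold 0.05), and the fit and the split search were tested on simulated data. DESeq2 1.42.0 was an alternative. Ratios used genes with a wildtype mean of at least 1 CPM. Named genes were the 2 of highest CPM in each role list, all imprinted genes, the 8 highest and 8 lowest GDel2 ratios at 5 CPM or more, the 3 genes on each side of both edges, and the 5 of lowest p in GDel1; other genes named beside them are neighbours or list members. The boundary, the members and the lists were chosen with earlier results of these data known. Replicate numbers did not pair the libraries: correlations of same-numbered deviations were 0.104 and -0.00584 between wildtype and GDel1, -0.111 and -0.0898 between wildtype and GDel2, and -0.208 between GDel1 and GDel2.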

Additional observations from a re-analysis of the deposited data

Results flagged for a closer look

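Of the genes named by rule, 8 had both GDel2 libraries above and both GDel1 libraries below every wildtype library, and 1 had the reverse. Other genes of the chromosome show these patterns and are not listed. Taken singly, the GDel2 pattern held for 33.3% and the GDel1 pattern for 24.9% of all 11412 protein-coding genes. For the reverse, 35.4% lay below every wildtype library in GDel2 and 23.1% above in GDel1. The share of genes with both patterns at once is not given here. Some of the 8 cleared the wildtype range by little. The lower GDel2 library was at 14.5 CPM for Stx8 against a wildtype high of 14.3. For Sparc these values were 196 and 190, and for Sec24a 139 and 137. The difference between the deletion groups was not tested here, since the genes were chosen on GDel2. The geometric mean of the GDel2 ratio to wildtype was 1.48 for Spred2, 2.29 for Nprl3, 1.18 for Sec24a, 1.12 for Sparc and 1.47 for Nt5m among the proximal genes. Beyond 60 Mb it was 1.94 for Rai1, 1.33 for Srebf1 and 1.06 for Stx8. Grb10 was the gene of the reverse kind, above wildtype in GDel1 and at 0.626 times wildtype in GDel2.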

How the results depend on the processing

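The GDel2 proximal median of 0.53 and the median from 60 Mb on of -0.09 became 0.57 and -0.04 with TMM without chromosomes 6, 8, 11 and Y, 0.41 and -0.19 with the deposited TPM, 0.47 and -0.13 with the boundary at the fitted split, and 0.59 and -0.03 when centred on the other autosomes (chosen after seeing the data); the second was -0.04 with a boundary at 50 Mb. Leaving out each replicate gave 0.48 to 0.52 and -0.12 to -0.06. The split at 67.4 Mb moved to 62.3 with TPM, to 62.1 with genes of at least 10 CPM and to 64.5 without GDel1 replicate 1 and GDel2 replicate 2, and lay at 67.0 to 67.4 leaving out each replicate. On the main scaling, GDel2 replicate 1 alone gave a split between 63.96 and 64.98 Mb, so the place differed between the GDel2 libraries. The 23 genes at or below wildtype in both GDel2 libraries became 15 at 10 CPM or more, where fewer genes enter, and 22 to 46 leaving out each replicate. The GDel1 difference of 0.10 ran from 0.06 to 0.13.

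Proximal genes called in GDel1 against wildtype were 2 (0.376% of all genes), and 29 with DESeq2 (6.32% of all), 56 without a filter on low counts (8.58% of all), 0 with a stricter filter, 0 with TMM without chromosomes 6, 8, 11 and Y, and 0 to 44 leaving out each replicate (44 without GDel1 replicate 1, where 12.6% of all genes were called); the share of all genes called moved alongside, and the cause was not tested. Calls in GDel2 against wildtype, 183 in all, ran from 131 to 213, and those against GDel1, 158 in all, from 108 to 165, leaving out each replicate. With the replicate number as a block, calls were 0 in GDel1, 106 in GDel2 and 90 between the deletion groups; with crossed pairing of the deletion libraries, chosen after seeing the data, they were 83, 207 and 192. Of the named genes' GDel2 values, 399 stayed on their side of the threshold, 39 lost it, 9 gained it and 3 moved. In GDel1 far fewer values were followed, of which 24 stayed, 12 lost it, 9 gained it and 0 moved. Matching positions by Ensembl identifier was not run, since the position table gives none.

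With 2 libraries per deletion group the GDel1 comparison cannot pass 0.05 by permutation, and ratios of genes below 1 CPM rest on few reads.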

Other observations

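Among the 43 proximal genes from 1 to 5 CPM in wildtype, 5 stood at 3.5 times wildtype or more in both GDel2 libraries; they were picked after their values were seen. Trim7, a ubiquitin ligase, was at 1.73 to 1.91 CPM in wildtype, 2.09 and 2.45 in GDel1, and 8.44 and 9.76 in GDel2. Nefh, the heavy neurofilament subunit, was at 2.84 to 3.68 CPM in wildtype, 4.02 and 4.22 in GDel1, and 18.9 and 14.2 in GDel2. Ccnjl, a cyclin-like protein, was at 2.10 to 2.42 CPM in wildtype, 1.85 and 2.29 in GDel1, and 11.4 and 8.31 in GDel2. Acsl6, an acyl-CoA synthetase of brain, was at 1.24 to 1.79 CPM in wildtype, 1.37 and 1.67 in GDel1, and 6 and 5.57 in GDel2. Hormad2, a meiotic chromosome protein, was at 1.24 to 1.58 CPM in wildtype, 0.644 and 0.625 in GDel1, and 5.21 and 4.92 in GDel2. The high GDel2 values of the 5 genes follow from the rule that picked them. Hormad2 alone had both GDel1 libraries below every wildtype library. The share of genes outside the proximal stretch that meet the same rule was not counted. Such rises are therefore not read as a trait of the proximal genes. Beyond the boundary, Slc47a1 and Kcnj12, also from 1 to 5 CPM in wildtype, met the rule as well. Slc47a1 stood at 7 and 7.38 times wildtype in the GDel2 libraries, and Kcnj12 at 5.03 and 5.35 times.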
